A study of Caenorhabditis elegans with 8 samples.

Results

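Cytochrome P450 genes outside the cyp-35 subfamily and most cyp-13A genes were followed in RNA of the nematode Caenorhabditis elegans. They were all rows of the count table whose symbol begins with cyp-, without the cyp-35 genes, cyp-13A1 to cyp-13A8, cyp-13A12 and the loci that the authors added. The rule gave 55 genes of 20257 gene models, and 74 gene models in all carry a cyp- symbol. Each of the 55 was found once in the WBcel235 annotation of Ensembl, where all are protein-coding. By subfamily there were 4 genes of 13A and 13B, 5 of 14A, 5 of 25A, 3 of 29A, 3 of 31A, 18 of 33, 8 of 34A and 2 of 37, and 7 genes of other families.

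Worms had been given magnolol at 200 µM for 1 h (3 libraries), honokiol at 200 µM for 1 h (2 libraries) or DMSO as the control (3 libraries). Magnolol and honokiol are biphenols of Magnolia bark and positional isomers: they carry the same substituents in a different arrangement on the joined rings. RNA came from the whole animal, and strain, sex, age and stage are not stated in the labels. The labels do not say that libraries of a group came from separate cultures, so p-values measure the spread between these libraries, which may be technical.

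P450 enzymes are haem proteins, most of them on the endoplasmic reticulum, that use molecular oxygen and electrons from NADPH to oxidise steroids, fatty acids and foreign compounds. The electrons reach them through a P450 reductase and, for some reactions, cytochrome b5. In nematodes the family has expanded into tandem arrays of related genes. By sequence families 13 and 25 belong with the vertebrate drug-metabolising CYP3 enzymes, 14, 33 and 34 with the CYP2 enzymes, and 29, 31, 32, 37 and 42 with the CYP4 enzymes, many of which hydroxylate fatty acids. CYP44A1 is the family member of the mitochondrial kind.

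Total counts per library ran from 30274330 to 35888186, and the P450s took 0.0750% to 0.132% of them. Levels are CPM, counts in every 1000000 of the TMM-scaled library size, and a change is a log2 fold change ± SE. Calls rest on the two-sided quasi-likelihood test of edgeR, with Benjamini-Hochberg adjustment over all 16813 rows tested and a threshold of 0.05 on the adjusted p. Only cyp-25A6, at 0 to 10 counts per library, did not pass the low-count filter, which leaves 54 genes tested. In bulk RNA of whole worms, more RNA per cell and more cells of a tissue cannot be told apart. Marker lists of 8 tissues or stages were all detected, with 0 rows at 0 in all libraries. The listed gsp-4 (sperm) and unc-15 (body muscle) had no row under those symbols, which leaves 2 body muscle genes. Of the tested marker rows elt-7 (higher with honokiol) and mlt-10 (lower with honokiol and higher with magnolol than with honokiol) were called. Of all tested rows 2.16% were called higher and 0.702% lower with magnolol, and 3.04% and 0.393% with honokiol. Lists of this size would therefore hold few calls in any case, and the few calls do not show that tissue make-up was equal. The 5 yolk genes of the adult summed to 20035, 31036 and 21392 CPM in magnolol 1 to 3, 18382 and 11454 CPM in honokiol 1 and 2, and 16820 to 19825 CPM in controls. Magnolol 2 was the highest and honokiol 2 the lowest library in that sum, and also in the sums of the intestine, oocyte and eggshell, molting, pharynx and body muscle lists. In the intestine list the sums were 4258, 5388 and 4653 CPM in magnolol 1 to 3, 4377 and 3578 CPM in honokiol 1 and 2, and 4103 to 4572 CPM in controls. The part of this in the results was not tested. Without magnolol 2, 15 P450s were called higher with magnolol, against 16 with all libraries, and without honokiol 2, 19 were called higher with honokiol, against 22.

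P450 transcripts of families 13, 14A, 25A, 29A, 33 and 34A were called higher with each compound. With magnolol this was 1 of 5 genes in 14A and 1 of 3 in 29A, and both calls were lost with some libraries left out. Calls of lower levels fell in family 37, both genes with magnolol and 1 with honokiol, and none of the 31A genes was called. With magnolol 16 of 54 rose, 2 fell and 36 were not called. Of all tested rows 2.16% were called higher and 0.702% lower in that comparison. With honokiol 22 rose, 1 fell and 31 were not called, where 3.04% of all tested rows were called higher and 0.393% lower. The median change of the 54 genes was 0.19 with magnolol and 0.48 with honokiol, while the median over all tested rows was 0.0027 with magnolol and -0.012 with honokiol. Both comparisons use the same 3 control libraries. The summed level of the 55 genes was 884, 924 and 918 CPM in magnolol 1 to 3, 1149 and 1229 CPM in honokiol 1 and 2, and 758, 802 and 751 CPM in controls 1 to 3, and the 3 groups did not overlap.

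**Figure D1:**
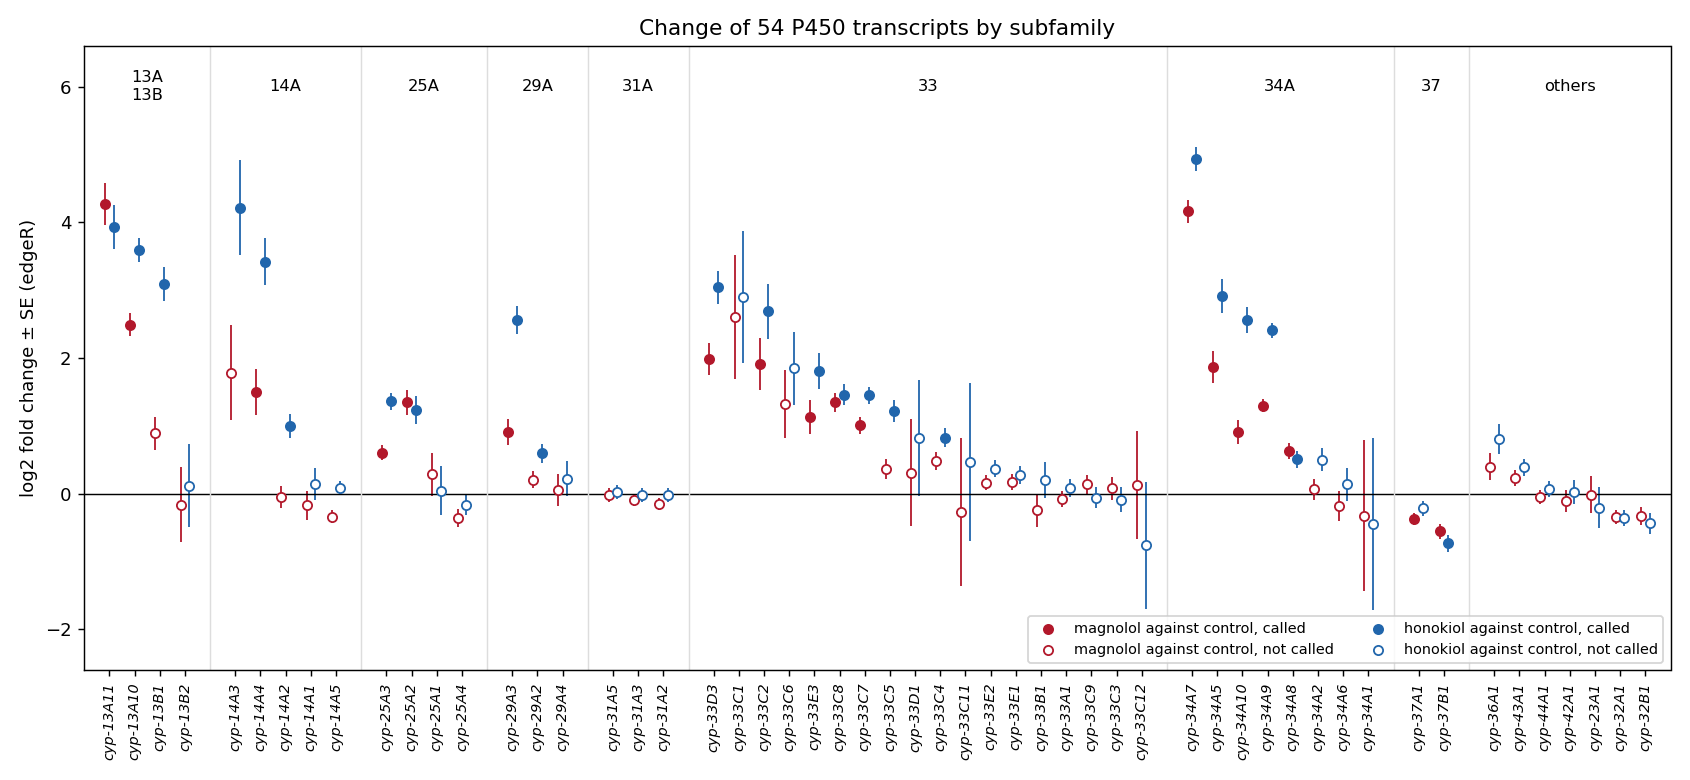
Log2 fold change ± SE (vertical axis) of the 54 tested P450 genes, sorted by subfamily, for magnolol (red) and honokiol (blue) against control; filled points were called at an adjusted p under 0.05. The largest changes were those of cyp-34A7 with honokiol (4.94) and cyp-13A11 with magnolol (4.27), and the 3 genes of 31A lie between -0.15 and 0.02.

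Subfamily 34A held the largest honokiol change among these genes. An array of 6 of its genes lies head to tail on the minus strand of chromosome V from 3955701 to 3972991, in the order cyp-34A5, cyp-34A6, cyp-34A7, cyp-34A8, cyp-34A9 and cyp-34A10. Of the 8 genes of the subfamily 5 rose with magnolol and 5 with honokiol, all of them in this array. The transcript of cyp-34A7 stood at 18.7, 18.1 and 17.6 CPM in magnolol 1 to 3, 28.999 and 32.996 CPM in honokiol 1 and 2, and 0.759, 1.28 and 0.992 CPM in controls 1 to 3. The 3 groups did not overlap. It rose by 4.16 ± 0.17 with magnolol (17.9-fold, adjusted p = 6.09e-10) and by 4.94 ± 0.18 with honokiol (30.6-fold, adjusted p = 7.71e-11).

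The most abundant P450 of the set in honokiol worms was cyp-34A9, at 67.3, 75.8 and 78.4 CPM in magnolol 1 to 3, 157 and 162 CPM in honokiol 1 and 2, and 29.5, 33.5 and 27.2 CPM in controls 1 to 3. Per kilobase of exon it stood at 43.3 CPM with magnolol, 93.4 with honokiol and 17.6 in control. The groups were again separate, with changes of 1.30 ± 0.10 with magnolol (adjusted p = 6.99e-07) and 2.41 ± 0.11 with honokiol (adjusted p = 8.26e-10). The transcript of cyp-34A5 stood at 8.03, 9.82 and 7.24 CPM in magnolol, 17.2 and 17.3 CPM in honokiol, and 1.31, 2.97 and 2.61 CPM in control libraries, rising by 1.86 ± 0.24 with magnolol and 2.91 ± 0.25 with honokiol. For cyp-34A10 the values were 7.19, 7.02 and 6.05 CPM in magnolol, 20.3 and 21.9 CPM in honokiol, and 2.98, 4.64 and 3.14 CPM in control libraries. It rose by 0.91 ± 0.18 with magnolol and 2.55 ± 0.19 with honokiol. Both genes showed control, magnolol and honokiol libraries in that rising order without overlap.

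Within the array the neighbours behaved unequally. The transcript of cyp-34A6, which lies between cyp-34A5 and cyp-34A7, was at 4.56 ± 0.774 CPM with magnolol, 5.71 ± 0.943 with honokiol and 5.21 ± 1.21 in control (SD; n = 3, 2 and 3) and was not called. Its change was -0.19 ± 0.22 with magnolol and 0.13 ± 0.24 with honokiol. The level of cyp-34A8 in control was already 43.5 ± 5.77 CPM, and it rose by 0.62 ± 0.11 to 67.0 ± 5.09 CPM with magnolol and by 0.50 ± 0.13 to 61.6 ± 8.46 CPM with honokiol. The honokiol call of cyp-34A8 (adjusted p = 0.0408) had adjusted p = 0.0728 without magnolol 3, 0.466 without honokiol 2, 0.177 without control 1, 0.0620 without control 3 and 0.0580 in a fit of only these groups. The magnolol call of cyp-34A10 (adjusted p = 0.00951) had adjusted p = 0.0552 without control 1. The pair cyp-34A1 and cyp-34A2, farther along the chromosome from 15285556 to 15291095, was not called with either compound. The level of cyp-34A2 was higher in both honokiol libraries than in all controls (0.50 ± 0.17, adjusted p = 0.178), and cyp-34A1 was detected at 0 to 19 counts per library. No source used here says how reads shared by such paralogs were assigned, so the separate values of neighbouring copies are uncertain.

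**Figure D2:**
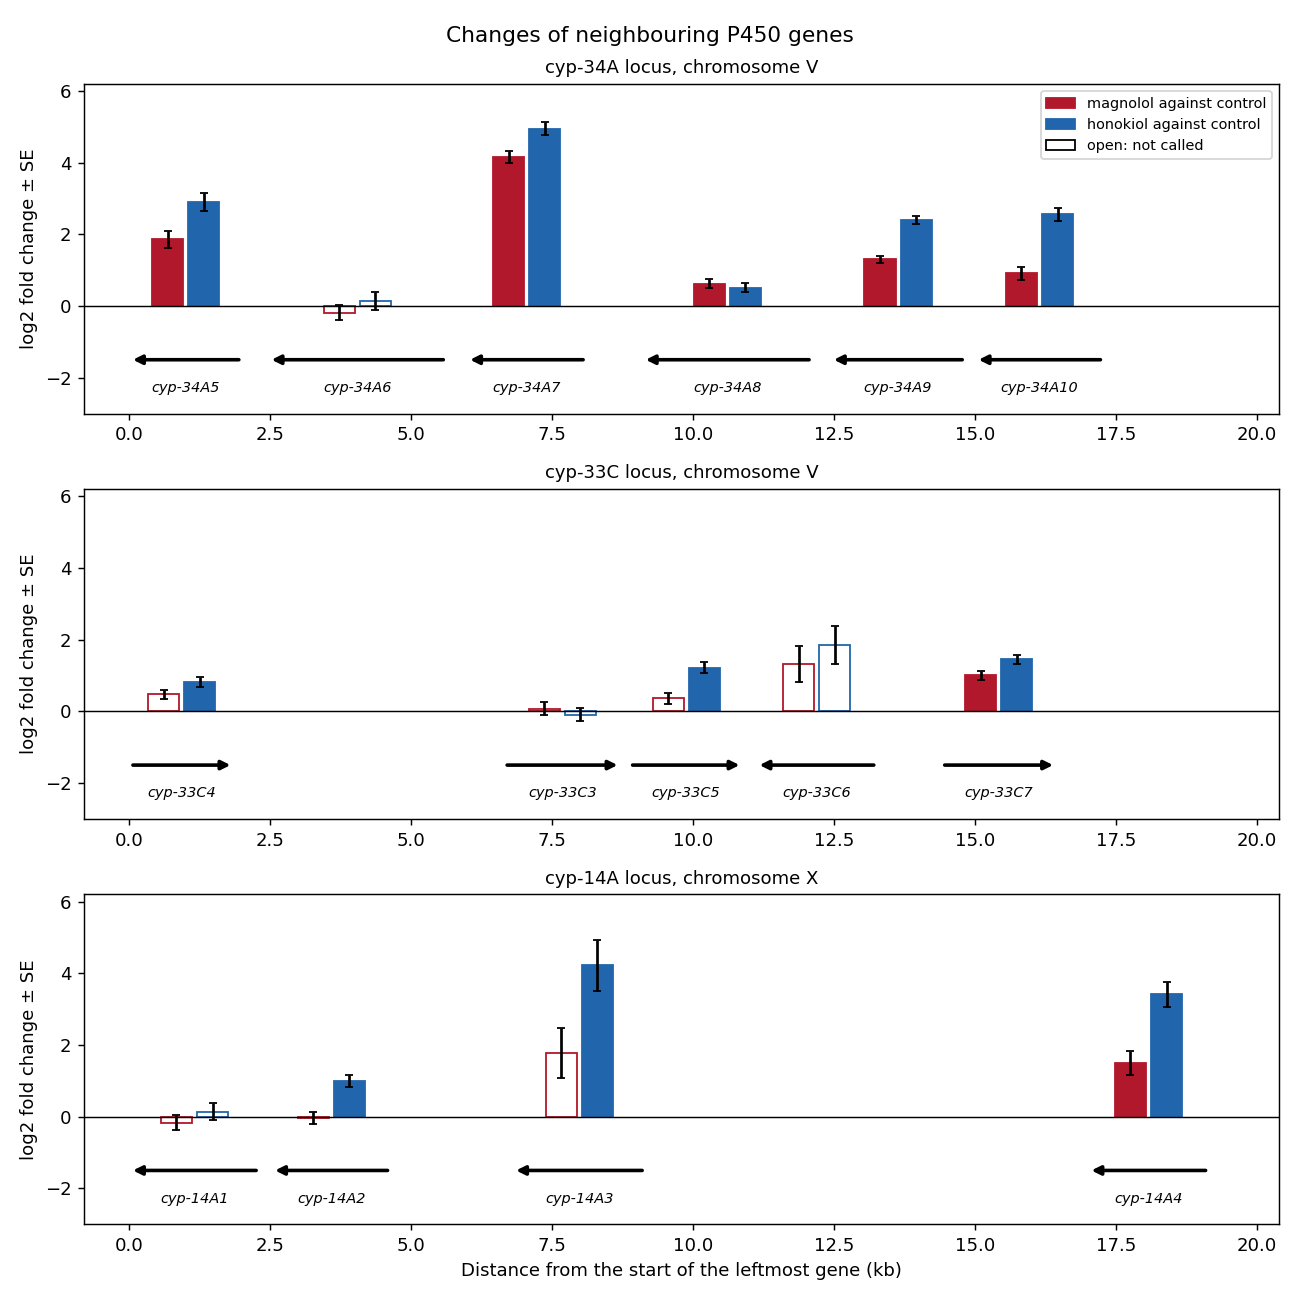
Changes of neighbouring P450 genes drawn to scale: the horizontal axis is the distance in kb from the start of the leftmost gene, arrows show each gene and its strand, and bars give log2 fold change ± SE for magnolol (red) and honokiol (blue) against control, open where not called. In the 34A array cyp-34A6 is uncalled between 2 called neighbours, and in the 14A array the bars of cyp-14A3 and cyp-14A4 are higher than those of cyp-14A1 and cyp-14A2.

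Family 33 is the largest, with 18 genes, of which 5 rose with magnolol and 7 with honokiol, and 0 were called lower with either compound. At an unadjusted p under 0.05 0 were lower with either compound, where 6.82% of all tested rows were lower with magnolol and 4.09% with honokiol, and DESeq2 called 0 lower. Among 18 genes such counts of 0 do not set the family apart. The largest called rise was that of cyp-33D3, on chromosome V, at 10.7, 8.95 and 8.40 CPM in magnolol 1 to 3, 16.7 and 21.9 CPM in honokiol 1 and 2, and 2.07, 1.58 and 3.44 CPM in controls 1 to 3. The 3 groups were separate. It rose by 1.99 ± 0.23 with magnolol (adjusted p = 7.45e-05) and by 3.04 ± 0.25 with honokiol (adjusted p = 8.78e-07). The transcript of cyp-33C8 stood at 21.8, 21.3 and 22.5 CPM in magnolol, 21.1 and 26.2 CPM in honokiol, and 7.33, 10.3 and 8.17 CPM in control libraries. Here the magnolol and honokiol libraries overlapped, both above control, with changes of 1.34 ± 0.14 with magnolol and 1.46 ± 0.15 with honokiol.

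On chromosome V from 2236140 to 2252591 lie cyp-33C4, cyp-33C3, cyp-33C5, cyp-33C6 and cyp-33C7. The transcript of cyp-33C7 was at 24.6, 21.7 and 26.7 CPM in magnolol, 33.01 and 33.17 CPM in honokiol, and 10.7, 12.6 and 13.1 CPM in control libraries, and rose by 1.00 ± 0.12 with magnolol and 1.45 ± 0.13 with honokiol. The transcript of cyp-33C5 was at 7.79, 10.7 and 9.25 CPM in magnolol, 16.8 and 16.7 CPM in honokiol, and 6.77, 7.02 and 7.80 CPM in control libraries. Its honokiol libraries stood above all others, a rise of 1.22 ± 0.16 (adjusted p = 1.62e-04), while magnolol and control overlapped (0.36 ± 0.15, adjusted p = 0.255). Beside them cyp-33C4 rose with honokiol (0.82 ± 0.14) and had a change of 0.48 ± 0.13 with magnolol (adjusted p = 0.0680, and 0.0482 in DESeq2), and cyp-33C3 was at 9.16 ± 0.556 CPM with magnolol, 8.16 ± 0.292 with honokiol and 8.67 ± 1.93 in control, without a call. The honokiol call of cyp-33C4 had adjusted p = 0.0719 without honokiol 2. The transcript of cyp-33C6 was at 6 to 26 counts in controls and was not called (1.32 ± 0.50 with magnolol and 1.85 ± 0.54 with honokiol). Without control 3 its change with honokiol was called (2.50).

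Other members of family 33 were called at low levels. The transcript of cyp-33C2, at 2.14 ± 0.338 CPM with magnolol, 3.68 ± 1.51 with honokiol and 0.565 ± 0.263 in control, rose by 1.91 ± 0.38 with magnolol and 2.69 ± 0.40 with honokiol. That of cyp-33E3 was at 5.31 ± 0.83 CPM with magnolol, 8.53 ± 1.83 with honokiol and 2.45 ± 0.908 in control, rising by 1.12 ± 0.25 with magnolol and 1.81 ± 0.27 with honokiol. The magnolol call of cyp-33C2 had adjusted p = 0.0530 without control 1, and that of cyp-33E3 had 0.0644 without magnolol 1, 0.122 without magnolol 3, 0.104 without control 1 and 0.110 without control 2. Exons of cyp-33E3 overlap those of F42A9.7 on the other strand, and no strand setting is stated for the counting. Its neighbour cyp-33E2, which acts in the pharynx in making eicosanoids from eicosapentaenoic acid, was at 19.75, 19.74 and 20.45 CPM in magnolol, 21.28 and 24.81 CPM in honokiol, and 18.42, 16.27 and 18.98 CPM in control libraries. It was not called (0.16 ± 0.11 with magnolol, adjusted p = 0.543, and 0.37 ± 0.13 with honokiol, adjusted p = 0.196). Both sets of treated libraries lay above the controls, as did those of the uncalled cyp-33E1. With so few libraries this order alone does not show a change. Not called either were cyp-33A1, cyp-33B1, cyp-33C1, cyp-33C9, cyp-33C11, cyp-33C12, cyp-33D1 and cyp-33E1, with changes from -0.77 (cyp-33C12 with honokiol) to 2.90 (cyp-33C1 with honokiol, SE 0.97). Counts of cyp-33C1 were at most 41 per library, with 0 in control 1. Exons of cyp-33C11 overlap srbc-39 on the other strand.

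Of the 4 genes of family 13 that the rule kept, 2 rose with magnolol and 3 with honokiol. The transcript of cyp-13A11, on chromosome III, stood at 20.9, 26.2 and 23.7 CPM in magnolol 1 to 3, 18.6 and 18.8 CPM in honokiol 1 and 2, and 0.350, 1.55 and 1.82 CPM in controls 1 to 3. Among the genes that rose it was the only one with all magnolol libraries above the honokiol libraries. It rose by 4.27 ± 0.31 with magnolol (19.3-fold, adjusted p = 3.14e-07) and by 3.93 ± 0.33 with honokiol (15.2-fold, adjusted p = 9.64e-07). The difference between the compounds was not called. The transcript of cyp-13A10, on chromosome II from 9660839 to 9662884, was at 10.9, 11.2 and 11.1 CPM in magnolol, 21.1 and 26.5 CPM in honokiol, and 2.10, 1.55 and 2.28 CPM in control libraries, and the groups were separate. It rose by 2.49 ± 0.17 with magnolol and 3.59 ± 0.18 with honokiol.

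The transcript of cyp-13B1, on chromosome X, showed a wide gap between the compounds. It stood at 8.92, 5.80 and 6.31 CPM in magnolol 1 to 3, 29.4 and 35.1 CPM in honokiol 1 and 2, and 2.63, 5.53 and 3.17 CPM in controls 1 to 3. With honokiol it rose by 3.09 ± 0.25 (adjusted p = 9.17e-07). With magnolol its change of 0.89 ± 0.24 was not called (adjusted p = 0.0680), but had adjusted p = 0.00525 without control 2, whose level was the highest of the controls, and 0.0176 in DESeq2. Its relative cyp-13B2 remained at 14 to 37 counts per library and was not called.

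Among the 14A genes 1 rose with magnolol and 3 with honokiol. The genes cyp-14A1, cyp-14A2, cyp-14A3 and cyp-14A4 lie on the minus strand of chromosome X from 13265041 to 13284197. The transcript of cyp-14A4 was at 2.33, 1.48 and 1.98 CPM in magnolol, 7.54 and 7.06 CPM in honokiol, and 0.496, 0.476 and 1.09 CPM in control libraries. The groups were separate, and it rose 2.83-fold with magnolol (log2 SE 0.33, adjusted p = 0.0236) and by 3.42 ± 0.35 on the log2 scale with honokiol (adjusted p = 1.06e-05). The magnolol call had adjusted p = 0.0892 without magnolol 1, 0.0759 without magnolol 3, 0.0995 without control 1, 0.105 without control 2 and 0.0871 in a fit of only these groups.

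The transcript of cyp-14A3 gave 17, 13 and 17 counts in magnolol 1 to 3, 88 and 84 counts in honokiol 1 and 2, and 0, 7 and 6 counts in controls 1 to 3. The 0 of control 1 allows up to 0.0876 CPM, for counting error only. With honokiol it rose by 4.22 ± 0.71 (adjusted p = 0.00167), or by 3.62 without control 1, and with magnolol its change of 1.78 ± 0.70 was not called. The transcript of cyp-14A2 was at 6.176, 6.473 and 5.204 CPM in magnolol, 13.51 and 10.98 CPM in honokiol, and 6.31, 5.62 and 6.48 CPM in control libraries. The magnolol libraries overlapped the controls (-0.05 ± 0.16) and the honokiol libraries stood above both, a rise of 1.00 ± 0.17 (adjusted p = 0.00243, or 0.0583 without honokiol 1). The transcript of cyp-14A1 was not called. Nor was cyp-14A5, which lies apart on chromosome V, called: it was at 36.3 ± 1.47 CPM with magnolol, 48.4 ± 1.90 with honokiol and 45.8 ± 3.67 in control. Its change with magnolol was -0.34 ± 0.09 (adjusted p = 0.0753, 0.0385 in DESeq2 and 0.0498 without control 3).

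In subfamily 25A 2 of 4 tested genes rose with each compound. They are cyp-25A2 and cyp-25A3, which run towards each other on chromosome III, within an array from 3832591 to 3852080 that also holds cyp-25A1 and cyp-25A4. The transcript of cyp-25A3 was at 34.8, 38.8 and 35.7 CPM in magnolol, 56.4 and 66.8 CPM in honokiol, and 25.2, 25.9 and 20.9 CPM in control libraries. The groups were separate, with rises of 0.60 ± 0.11 with magnolol (adjusted p = 0.00561) and 1.36 ± 0.12 with honokiol (adjusted p = 2.15e-06). The transcript of cyp-25A2 was at 10.65, 14.04 and 14.65 CPM in magnolol, 11.3 and 12.9 CPM in honokiol, and 3.80, 5.98 and 5.75 CPM in control libraries, so that the treated libraries overlapped each other above the controls. It rose by 1.34 ± 0.19 with magnolol and 1.23 ± 0.20 with honokiol. The outer genes of the array, cyp-25A1 (0.28 ± 0.32 with magnolol and 0.04 ± 0.36 with honokiol) and cyp-25A4 (-0.36 ± 0.14 with magnolol and -0.17 ± 0.15 with honokiol), were not called.

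In subfamily 29A cyp-29A3, an enzyme tied to eicosanoid production in the worm, rose with both compounds. It stood at 4.15, 4.35 and 3.96 CPM in magnolol 1 to 3, 12.3 and 13.9 CPM in honokiol 1 and 2, and 2.39, 1.78 and 2.48 CPM in controls 1 to 3. The groups did not overlap, and the rises were 0.90 ± 0.19 with magnolol (adjusted p = 0.0153) and 2.56 ± 0.20 with honokiol (adjusted p = 4.82e-07). The magnolol call had adjusted p = 0.0608 without magnolol 2, 0.0685 without control 2 and 0.0616 in a fit of only these groups. The transcript of cyp-29A2 was at 14.92, 15.26 and 16.86 CPM in magnolol, 20.39 and 20.65 CPM in honokiol, and 13.96, 11.87 and 15.01 CPM in control libraries. It rose with honokiol by 0.59 ± 0.14 (adjusted p = 0.0225), and was not called with magnolol (0.20 ± 0.12). That honokiol call had adjusted p = 0.102 without honokiol 1, 0.168 without honokiol 2, 0.0581 without control 1, 0.0916 without control 2 and 0.0518 in a fit of only these groups. The third gene, cyp-29A4, was not called.

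Both genes of family 37 fell with magnolol and 1 of them with honokiol. The transcript of cyp-37B1, on chromosome V, was at 44.7, 53.1 and 52.4 CPM in magnolol 1 to 3, 37.99 and 50.53 CPM in honokiol 1 and 2, and 69.0, 79.6 and 72.5 CPM in controls 1 to 3. The treated libraries overlapped each other, all below the controls, and it fell by 0.56 on the log2 scale with magnolol (SE 0.11, adjusted p = 0.0135) and by 0.74 with honokiol (SE 0.13, adjusted p = 0.00292). These calls had adjusted p = 0.0729 without magnolol 1 and 0.0733 without control 2 for magnolol, and 0.0914 without honokiol 1 for honokiol. The transcript of cyp-37A1, on chromosome II, was at 34.8, 42.1 and 38.7 CPM in magnolol, 43.1 and 42.7 CPM in honokiol, and 51.0, 50.3 and 48.5 CPM in control libraries. All treated libraries lay below the controls, with a change of -0.37 ± 0.09 with magnolol (adjusted p = 0.0479) and -0.22 ± 0.11 with honokiol (adjusted p = 0.493). The magnolol call lay near the threshold: leaving out magnolol 1, magnolol 3, honokiol 1, control 1, control 2 or control 3 gave adjusted p = 0.179, 0.177, 0.0615, 0.148, 0.121 and 0.0602 in that order. Exons of cyp-37A1 overlap F01D5.8 and those of cyp-37B1 overlap F28G4.2, in both cases on the other strand.

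None of the 3 genes of 31A was called with either compound in edgeR or DESeq2. An unadjusted p under 0.05 was reached by 0 of the 3, and by 15.4% of all tested rows with magnolol and 10.8% with honokiol, so a count of 0 of 3 does not set these genes apart. The enzymes cyp-31A2 and cyp-31A3 are known for their part in building the lipid layer of the eggshell. The transcript of cyp-31A2 was at 63.5, 63.7 and 60.4 CPM in magnolol, 66.5 and 70.6 CPM in honokiol, and 78.4, 64.8 and 65.5 CPM in control libraries. The magnolol libraries lay just below the controls, with a 95% interval of -0.36 to 0.05 for the log2 change, and the honokiol libraries overlapped them, with an interval of -0.25 to 0.21. The transcript of cyp-31A3 was at 46.6, 46.5 and 49.4 CPM in magnolol, 52.5 and 47.3 CPM in honokiol, and 51.0, 51.3 and 49.6 CPM in control libraries. Its intervals were -0.28 to 0.10 with magnolol and -0.23 to 0.19 with honokiol. For cyp-31A5 the intervals were -0.23 to 0.19 and -0.21 to 0.26 for the same comparisons. Exons of cyp-31A5 overlap Y62E10A.19 on the other strand. Markers of oocytes and eggshell, added as a list of 10 genes, were not called either, and in their sum magnolol 2 (4923 CPM) was the highest and honokiol 2 (2998 CPM) the lowest library.

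Of the 7 genes of other families 0 were called with either compound in edgeR or DESeq2. At an unadjusted p under 0.05 2 were lower with magnolol, and 2 were higher and 2 lower with honokiol. Of all tested rows 15.4% passed that threshold with magnolol and 10.8% with honokiol. The mitochondrial family member cyp-44A1 was at 42.5, 46.9 and 40.3 CPM in magnolol, 48.4 and 45.7 CPM in honokiol, and 48.03, 47.35 and 39.35 CPM in control libraries, and all groups overlapped. Its log2 change had a 95% interval of -0.28 to 0.17 with magnolol and -0.18 to 0.31 with honokiol, and its exons overlap npp-24 on the same strand. The transcript of cyp-36A1, which acts downstream of the hypoxia pathway of EGL-9 and HIF-1 in the worm, was at 4.98, 6.44 and 4.67 CPM in magnolol, 7.15 and 7.06 CPM in honokiol, and 4.99, 3.75 and 3.47 CPM in control libraries. The honokiol libraries lay above all others, a change of 0.80 ± 0.22 that was not called (adjusted p = 0.0654, and 0.0329 without control 1), and the change with magnolol was 0.39 ± 0.20. Its exons overlap figo-1 on the other strand. The transcript of cyp-32A1 was at 21.1, 22.5 and 23.5 CPM in magnolol, 22.8 and 21.7 CPM in honokiol, and 27.9, 30.1 and 27.5 CPM in control libraries. Its change was -0.35 ± 0.10 with magnolol and -0.36 ± 0.11 with honokiol, neither of them called. After a correction for exon length the magnolol change was called (-0.37, adjusted p = 0.0431). For cyp-43A1, whose exons overlap C41G11.1 on the other strand, the changes were 0.23 ± 0.11 with magnolol and 0.39 ± 0.13 with honokiol. The genes cyp-23A1, cyp-32B1 and cyp-42A1 had changes from -0.44 to 0.02. Without control 3, cyp-32B1 was called lower with honokiol (adjusted p = 0.0490).

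Levels in control worms, compared per kilobase of exon, placed cyp-31A2 (42.7 CPM per kb) and cyp-37B1 (42.5) first, followed by cyp-37A1 (31.8), cyp-31A3 (31.7), cyp-14A5 (29.4), cyp-44A1 (28.96), cyp-34A8 (27.4) and cyp-31A5 (23.7). The first 2 differed by less than their spread and their control libraries all lay above those of the other 6, among which each gene's range overlapped that of the next. Of these 8 genes only cyp-34A8 was called higher with either compound. The lowest controls were those of cyp-33C1 (0.0665 CPM per kb) and cyp-14A3 (0.0880), both with 0 counts in control 1. In honokiol worms cyp-34A9 (93.4 CPM per kb) came first, above cyp-31A2 (42.0), cyp-34A8 (38.9) and cyp-25A3 (34.7).

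**Figure D3:**
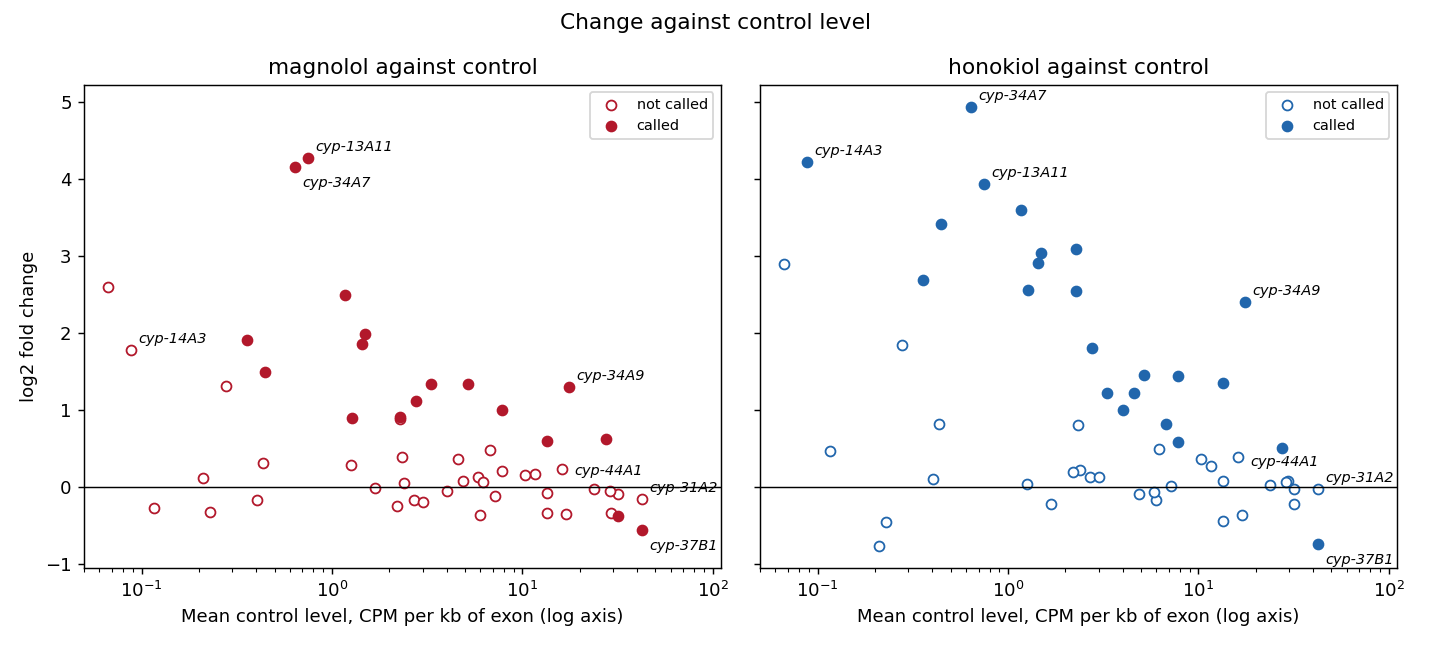
Log2 fold change with magnolol (left) and honokiol (right) against the mean control level in CPM per kb of exon (log axis) for the 54 tested P450 genes; filled points were called. The control libraries enter both axes. The changes over 3 in size all belong to genes under 3 CPM per kb in control, and cyp-34A9, at 17.6, changed by 2.41 with honokiol.

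Both isomers were given at equal dose and duration, which makes 1 pair of compounds to compare directly. Of the 54 genes 12 were lower with magnolol than with honokiol, 0 were higher, and 42 were not called. Of all tested rows 1.24% were called lower with magnolol and 0.285% higher. At an unadjusted p under 0.05 the counts were 19 lower and 0 higher, where 7.11% of all tested rows were lower and 8.95% higher. DESeq2 called 12 lower and 0 higher. Of its 12 genes 11 were shared with edgeR: it added cyp-14A5 and gave no adjusted p for cyp-14A4. Without honokiol 2 the count fell to 6, all of them among the 12, and it was 8 without magnolol 3. The median difference of the 54 genes, magnolol over honokiol, was -0.30, beside -0.014 over all tested rows.

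The genes that differed were spread over 6 subfamilies. By size of the difference they were cyp-13B1 (-2.20 ± 0.24, adjusted p = 8.18e-05), cyp-14A4 (-1.92 ± 0.32, adjusted p = 0.00380), cyp-29A3 (-1.66 ± 0.19, adjusted p = 1.22e-04), cyp-34A10 (-1.64 ± 0.18, adjusted p = 8.92e-05), cyp-34A9 (-1.11 ± 0.11, adjusted p = 2.16e-05) and cyp-13A10 (-1.10 ± 0.16, adjusted p = 0.00121). Smaller differences were those of cyp-33D3 (-1.05 ± 0.23), cyp-34A5 (-1.04 ± 0.23), cyp-14A2 (-1.04 ± 0.17), cyp-33C5 (-0.86 ± 0.16), cyp-34A7 (-0.78 ± 0.15) and cyp-25A3 (-0.76 ± 0.12). In each of these 12 genes every magnolol library lay below both honokiol libraries, as the plot by library shows. The genes were selected by the test on these same libraries, so this separation is no further evidence. Many uncalled genes also had every magnolol library below both honokiol libraries. Among them were cyp-33A1 (adjusted p = 0.622), cyp-14A1, cyp-25A4, cyp-31A2, cyp-33B1, cyp-33E1 and cyp-37A1. The share of all tested rows with this order was not counted. Without honokiol 2 adjusted p was 0.0631 for cyp-13A10, 0.0771 for cyp-25A3, 0.101 for cyp-33C5, 0.539 for cyp-33D3, 0.297 for cyp-34A5 and 0.258 for cyp-34A7. Without magnolol 3 it was 0.0539 for cyp-33C5, 0.147 for cyp-33D3, 0.165 for cyp-34A5 and 0.0746 for cyp-34A7. It was also 0.112 for cyp-33D3 without magnolol 2, and for cyp-34A5 0.0755 without magnolol 1 and 0.0678 without honokiol 1.

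**Figure D4:**
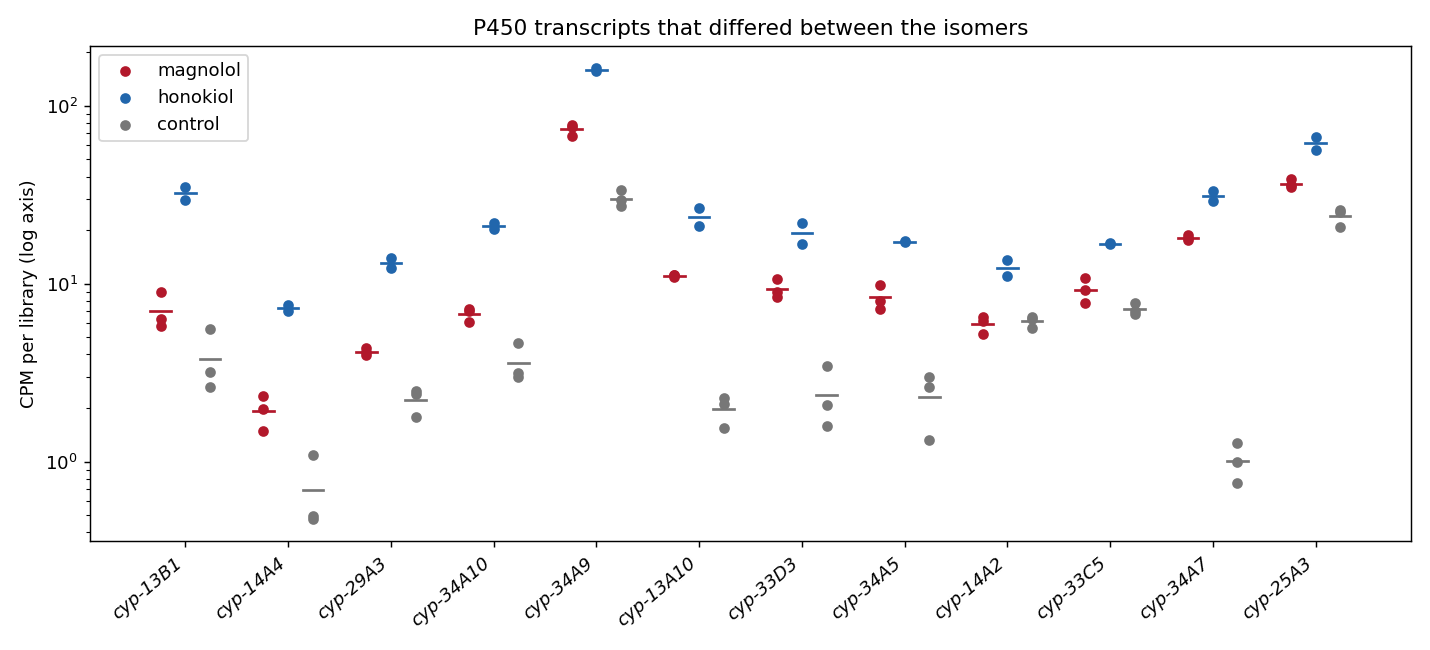
CPM of each library (points, log axis) and group mean (line) for the 12 P450 genes that differed between the isomers, with magnolol, honokiol and control from left to right. The honokiol points lie above the magnolol points in every gene, and for cyp-14A2 the magnolol and control points overlap. The genes were selected by this difference in the same libraries.

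Genes with rises under both compounds did not all differ between them. For cyp-13A11 the difference of magnolol over honokiol was 0.34, with a 95% interval of -0.25 to 0.93, for cyp-25A2 0.11 (-0.31 to 0.54), for cyp-33C8 -0.11 (-0.44 to 0.21) and for cyp-34A8 0.12 (-0.15 to 0.39). Also uncalled between the compounds were cyp-33C7 at -0.44 (-0.72 to -0.16) and cyp-33E3 at -0.68 (-1.25 to -0.12), with intervals below 0. For cyp-33C2 the difference was -0.78 (-1.58 to 0.02). For the gene that fell with both, cyp-37B1, the difference was 0.18 (-0.10 to 0.46). The difference of cyp-14A3, -2.43 ± 0.62, was the largest in size but was not called at its low counts (adjusted p = 0.0737, and 0.00775 without control 1). For cyp-14A5 the difference of -0.42 ± 0.10 was not called (adjusted p = 0.0664, 0.0207 in DESeq2 and 0.0410 without control 3). An interval that holds 0 does not show that the compounds act alike on a gene.

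Partners of these enzymes were followed as a list of 24 genes for electron transfer, haem transport and the dafachronic acid pathway, of which 21 were tested. With magnolol 3 rose and 0 fell, and with honokiol 5 rose and 0 fell. Of all tested rows 2.16% were called higher and 0.702% lower with magnolol, and 3.04% and 0.393% with honokiol. A count of 0 lower among 21 therefore does not set the list apart. The P450 reductase gene emb-8 was at 401, 505 and 443 CPM in magnolol 1 to 3, 509 and 495 CPM in honokiol 1 and 2, and 220, 208 and 192 CPM in controls 1 to 3. It rose by 1.12 ± 0.11 with magnolol and 1.28 ± 0.11 with honokiol, the treated libraries overlapping each other above the controls. The cytochrome b5 gene cytb-5.1 was at 56.3, 56.9 and 58.1 CPM in magnolol, 88.3 and 96.0 CPM in honokiol, and 47.7, 43.0 and 44.9 CPM in control libraries. It rose by 1.03 ± 0.09 with honokiol, and its change with magnolol was 0.34 ± 0.09 (adjusted p = 0.0535, and 0.0156 in DESeq2).

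The gene vem-1, a haem-binding membrane protein related to cytochrome b5, was at 90.7, 68.3 and 83.5 CPM in magnolol, 135 and 156 CPM in honokiol, and 28.5, 29.9 and 29.2 CPM in control libraries. Its groups were separate, with rises of 1.47 ± 0.11 with magnolol and 2.32 ± 0.12 with honokiol. The sterol oxygenase gene daf-36, which starts dafachronic acid synthesis, rose by 0.98 ± 0.14 with magnolol and 1.19 ± 0.16 with honokiol, while daf-9, the P450 that ends it and whose symbol lies outside the rule, was not called (0.17 ± 0.18 with magnolol and 0.22 ± 0.20 with honokiol). The haem transporter gene hrg-1 rose with honokiol (0.80 ± 0.16) and was at -0.0018 ± 0.15 with magnolol. Between the isomers vem-1, cytb-5.1 and hrg-1 were lower with magnolol, and din-1, the corepressor of the steroid receptor DAF-12, was higher (0.76 ± 0.16). Of all tested rows 1.24% were called lower with magnolol in that comparison and 0.285% higher. The call of din-1 had adjusted p = 0.105 without magnolol 2, 0.0600 without magnolol 3 and 0.490 without honokiol 2, and its difference was 0.29 after a correction for exon length. For the isomer difference of hrg-1 adjusted p was 0.0736 without magnolol 2, 0.0924 without magnolol 3 and 0.403 without honokiol 2, and for its rise with honokiol 0.201 without honokiol 2.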

How the data were processed

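Counts were deposited by the authors as 1 table of whole-number read counts per gene, without normalization. The submitters' processing notes name WBcel235 and DESeq2, with no role. Of the aligner, counter, strand setting and handling of multi-mapping reads the sources used here give nothing. Libraries were placed by title. The genes and lists were chosen with earlier results of these data known. Tests used edgeR 4.0.16 in R 4.3.3: filterByExpr by group (16813 of 21309 rows kept), TMM, group means over all 8 libraries, glmQLFit and glmQLFTest. The 95% intervals used 14.4 degrees of freedom. The fit was checked on simulated counts. The alternatives were DESeq2 size factors, no low-count filter, DESeq2 1.42.0, only the groups compared, a replicate block, no added loci, a correction for exon length, and each library left out (a lone honokiol library was then assumed to vary like the others). Per subfamily, the genes named by rule were all that fell, up to 4 with the smallest p, all called between isomers, genes of known role and the highest where 0 were called (27 genes). The other 27 tested genes, where named, were chosen after their values were seen. Gene spans and exon lengths came from Ensembl for WBcel235. Protein identity and promoter motifs were not analysed here. Plots used Python 3.11.15, pandas 2.3.3 and matplotlib 3.10.9.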

Additional observations from a re-analysis of the deposited data

How the results depend on the processing

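Of 53 calls among the P450 genes over the 3 comparisons, 34 held under all 15 alternatives, and 0 turned their direction. DESeq2 gave no adjusted p for 1 of the others, the isomer difference of cyp-14A4. The counts of P450s called higher with either compound moved by less than 1.5 times under each alternative. The count called lower with magnolol, 2 with all libraries, was 1 with the replicate block, 4 after the correction for exon length, and 0 to 2 with a library left out. That correction added cyp-14A5 and cyp-32A1. With honokiol the lower count of 1 was 0 to 2 with a library left out. Between the isomers the 12 genes lower with magnolol became 6 to 13 with a library left out. Of the partner genes 1 was lower with honokiol without the low-count filter, and 0 to 1 with a library left out. The 1 partner higher with magnolol than with honokiol became 2 without the filter, 2 in DESeq2, 0 with the replicate block, 0 after the length correction and 0 to 2 with a library left out. The cause of these moves was not tested. Whether replicate numbers pair the libraries is not stated. The numbers were taken from the titles, while the library names skip a number between the honokiol libraries. A block by order of library name was not fitted. Deviations from the group mean of same-numbered magnolol and control libraries correlated at -0.17, -0.05 and -0.08 over 11259 genes. Those of same-numbered honokiol and control libraries correlated at 0.14 and 0.094, and those of magnolol and honokiol libraries at -0.32 and -0.42. Not every library correlated best with its own number. Deviations within so small a group are tied to each other, so this check cannot exclude a pairing. With the replicate block the isomer count was 9, and cyp-33D3, cyp-34A5 and cyp-34A7 had adjusted p = 0.0785, 0.0872 and 0.0704. The block also gave adjusted p = 0.114 for the fall of cyp-37A1 with magnolol, and 0.0557 for hrg-1 and 0.127 for din-1 between the isomers. Depth limits the genes of a few counts: cyp-25A6 was not tested, and cyp-33C1, cyp-33C11, cyp-33C12, cyp-33D1 and cyp-34A1 had standard errors of 0.79 to 1.27.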

Other observations

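The authors' table also holds added loci that carry symbols of these P450 genes and were left out by the rule. The added locus with the symbol cyp-33C7 was at 4.45, 4.89 and 3.17 CPM in magnolol 1 to 3, 1.84 and 1.81 CPM in honokiol 1 and 2, and 2.80, 3.33 and 3.64 CPM in controls 1 to 3. It was higher with magnolol than with honokiol (1.19 ± 0.28, adjusted p = 0.0468), whereas the gene model of cyp-33C7 lay lower with magnolol (-0.44 ± 0.13, not called). Its change was 0.36 ± 0.23 with magnolol and -0.83 ± 0.28 with honokiol against control, neither of them called. The added locus with the symbol cyp-25A4 was at 4 to 30 counts per library and was not called. Both added loci with the symbol cyp-34A5 held 3 counts at most in any library.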
